A study of Rattus norvegicus with 24 samples.

Results

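Immediate-early genes are the genes that a cell transcribes first when it receives a signal. Of these, 10 were followed in rat blood: Fos, Fosb, Jun, Junb, Egr1, Egr2, Atf3, Ier2, Ier3 and Nr4a1. Their probes were found by name, as every non-control probe of the array whose gene name equals one of them. This gave 11 probes among 30367 (10 genes among 25885 gene names). The members were chosen with earlier results of these data known. Egr1 had 2 probes and the other members had 1 each. Blood RNA of 24 male Sprague-Dawley rats had been hybridised to two-colour Agilent arrays, 1 rat per array, each against a common reference pool of RNA. By the study's methods, the pool mixed RNA of each experimental group in equal amounts, from rats not hybridised singly.

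All rats entered at 8 weeks of age and ate a semi-synthetic diet for 6 weeks. The diet was plain (G0) or held 1% by weight of an oat beta-glucan of high (G1) or low (G2) molecular weight. On each diet, 4 rats were given lipopolysaccharide (LPS), a bacterial cell wall component that provokes inflammation, at 10 mg/kg into the tail vein 2 times, 7 days apart, and 4 control rats (C) were given saline. This gave 6 groups of 4: C-G0, LPS-G0, C-G1, LPS-G1, C-G2 and LPS-G2. Blood was taken by cardiac puncture after fasting at the end of the feeding period, and the interval from the last injection to the blood draw is not given in the sources used here. For replicates 3 and 4 of LPS-G0, one label names LPS and another names the control, and they were kept as LPS-G0.

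Immediate-early genes are induced within minutes of a stimulus by transcription factors that are already present, such as serum response factor with its Ets partners and CREB, so no new protein is needed. Their messengers are mostly short-lived and their induction is transient. Fos and Jun proteins pair to form the AP-1 transcription factor, Egr1 and Egr2 are zinc finger factors, Atf3 is a CREB family factor known chiefly as a repressor, and Nr4a1 is an orphan nuclear receptor. In leukocytes they are known as early responders to LPS, cytokines and antigen receptor signals.

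All values are log2 ratios of Cy3 over Cy5, the ratio of a rat to the reference pool where the rat's RNA carries Cy3. The labels give the dyes that way and the study's methods give the reverse. Cy3 was taken as the rats' channel since it varied more within groups, with a median SD of 0.353 against 0.195 on the log2 scale over 7074 probes bright in both channels. With the methods' dyes every sign given here would turn, and the filter and the sorting of members into bright and dim, which were made on Cy3, would rest on Cy5. Levels of different probes are not set against each other. In blood, fewer cells of a type and less RNA per cell cannot be told apart.

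The arrays lay on 3 slides of 8, each slide with all 6 groups. On the first principal component of the deviations from group means (31.2% of the variance), C-G0 replicate 1 had a score of -0.51 and C-G1 replicate 2 a score of 0.45. The other arrays lay between -0.31 and 0.31. The Cy3 signal was well above background for 7786 to 15385 probes, depending on the array. Markers of neutrophils, monocytes, T cells, B cells, NK cells, erythroid cells and platelets were detected, while Ltf of the neutrophil list was well above background on 0 of 24 arrays and Cd79a and Hba-a2 matched no probe by name. The arrays of a group were separate rats, so p-values measure the spread between rats.

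The members fell into a bright and a dim set. Fosb, Jun, Junb, Ier2, Ier3 and Nr4a1 were well above background in Cy3 on 24 of 24 arrays and entered the tests. Fos, Atf3, Egr1 and Egr2 did not pass the filter, which asked for all 4 arrays of at least 1 group. In Cy5, taken as the reference pool, Fos was well above background on 23 arrays, Atf3 on 24, the brighter Egr1 probe on 23 and Egr2 on 0, so with the methods' dyes Fos, Atf3 and Egr1 would count as detected in most or all rats. Cy5 was well above background for more probes in general, 14400 to 22449 by array against 7786 to 15385 in Cy3. Failing the filter on Cy3 therefore does not show that a member was absent from the rats.

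Fos, the founding AP-1 subunit, was well above background in 1 of the 24 rats. The Cy3 signals were 17.2, 18.6, 22.3 and 25.7 in C-G0 and 14.3, 12.9, 13.8 and 39.1 in LPS-G0. They were 23.6, 38.9, 62.1 and 12.3 in C-G1 and 10.9, 17.1, 13.9 and 27.4 in LPS-G1. They were 29.4, 13.8, 19.7 and 23.6 in C-G2 and 20.1, 54.1, 11.9 and 10.4 in LPS-G2. The single bright array was C-G1 replicate 3 (62.1), and LPS-G2 replicate 2 at 54.1 was not well above its own background. For comparison, the lowest signal that counted as well above background was between 17.4 and 46.0 across the arrays. This is not a threshold, since in LPS-G2 replicate 2 it was 31.1 and the Fos signal of 54.1 still did not count.

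Atf3 was well above background in 6 rats, of which 1 was in C-G0, 2 were in C-G1 and 2 in C-G2. The remaining rat was in LPS-G1, with 0 in LPS-G0 and 0 in LPS-G2. The Cy3 signals were 16, 34.2, 28.2 and 62.0 in C-G0 and 13.8, 12.9, 17.8 and 38.1 in LPS-G0. They were 45.6, 33.4, 42.4 and 68.6 in C-G1 and 20.1, 19.95, 30.9 and 67.0 in LPS-G1. They were 44.8, 81.7, 25.3 and 69.3 in C-G2 and 22.5, 33.4, 34.9 and 37.4 in LPS-G2. The groups overlapped on every diet. Replicate 4 of C-G0, C-G1, LPS-G1 and C-G2, among the 6 bright rats, lay on slide 3. Arrays of that slide had 11226 to 15385 probes well above background in Cy3. The range was 9769 to 12613 on slide 1 and 7786 to 11079 on slide 2. The part of the slide in the Atf3 counts was not tested. Since arrays in every group were not well above background, no fold is given for Atf3.

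The Egr1 and Egr2 probes were dim in every rat. The brighter Egr1 probe gave Cy3 signals of 9.96 to 47.9 with a median of 17.7, and the other gave 8.49 to 43.1 with a median of 16.5. Egr2 gave 8.49 to 18.4 with a median of 12.4. No fold is given for them, and a level under these limits was not detectable.

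**Figure D1:**
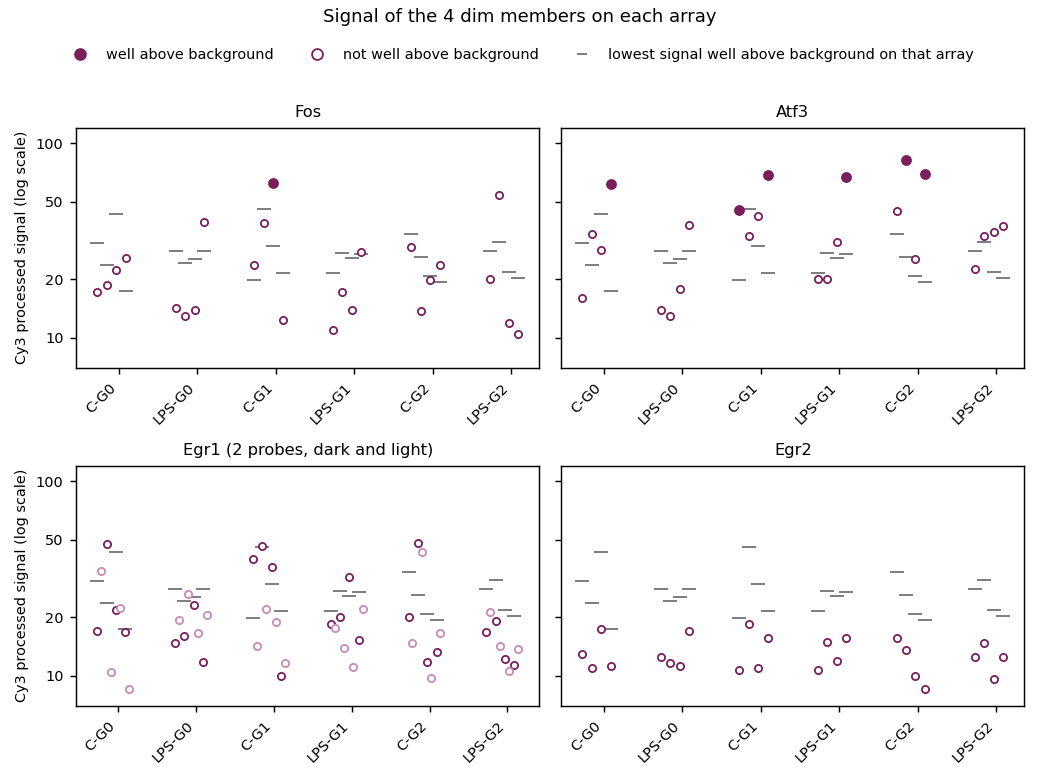
Cy3 processed signal (log scale) of Fos, Atf3, Egr1 (2 probes) and Egr2 on each of the 24 arrays by group, 4 arrays a group in order of replicate; filled circles were well above background, open circles were not, and grey dashes are the lowest signal well above background on that array. Filled points occur in 1 array for Fos (C-G1) and in 6 arrays for Atf3, none of them in LPS-G0 or LPS-G2. Most of these Atf3 arrays lay on slide 3.

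Among the bright members, Jun, Junb and Fosb encode AP-1 subunits. Jun (probe at rn4 chr5:115359410-115359469, minus strand) is the principal Jun protein of AP-1. Its ratios were -0.18, 0.67, 0.35 and -0.029 in C-G0 and -0.55, -0.12, -0.50 and -0.34 in LPS-G0. They were 0.23, -0.38, 0.096 and 0.41 in C-G1 and 0.045, -0.45, 0.10 and 0.083 in LPS-G1. They were 0.40, 0.083, 0.025 and -0.21 in C-G2 and -0.34, 0.18, 0.39 and -0.043 in LPS-G2. LPS-G0 was the only group with all 4 rats below 0, and its highest rat (-0.12) lay above the lowest rat of C-G0 (-0.18), so the groups overlapped. The group means ran from -0.38 ± 0.19 (SD, n = 4) in LPS-G0 to 0.20 ± 0.38 in C-G0.

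Junb (probe at rn4 chr19:24833225-24833284, plus strand) encodes an AP-1 subunit that often restrains Jun. Its ratios were -0.82, -0.070, -0.46 and -0.48 in C-G0 and -0.71, -0.64, -0.19 and -0.50 in LPS-G0. They were -0.24, 0.014, 0.64 and -0.13 in C-G1 and -0.57, -0.42, -0.22 and -0.28 in LPS-G1. They were -0.64, 0.28, -0.45 and -0.22 in C-G2 and 0.12, 0.23, -0.13 and -0.42 in LPS-G2. The means lay between -0.51 ± 0.23 (SD, n = 4) in LPS-G0 and 0.072 ± 0.40 in C-G1, where replicate 3 stood above the other 3 rats. Without that rat the difference of C-G1 from C-G0 was 0.34 in place of 0.53.

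Fosb (probe at rn4 chr1:78668672-78668731, minus strand) encodes a Fos family partner of the Jun proteins. Its ratios were 0.99, 1.07, 0.80 and -0.20 in C-G0 and 0.40, 0.89, 0.48 and 0.25 in LPS-G0. They were -0.22, -0.44, -0.18 and -0.13 in C-G1 and 0.18, -0.069, 0.018 and -0.12 in LPS-G1. They were 0.45, -0.30, 0.014 and -0.67 in C-G2 and 0.25, -0.10, 0.70 and 0.0097 in LPS-G2. On the plain diet 7 of 8 rats were above 0, and C-G0 replicate 4 was the exception. All 4 rats of C-G1 were below 0. The means in falling order were C-G0 with 0.66 ± 0.59 (SD, n = 4), LPS-G0 with 0.51 ± 0.27, LPS-G2 with 0.21 ± 0.36, LPS-G1 with 0.0043 ± 0.13, C-G2 with -0.13 ± 0.48 and C-G1 with -0.24 ± 0.14, and no 2 neighbours in this order differed by more than the larger of their SDs.

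Ier2 and Ier3 are small early response genes. Ier2 (probe at rn4 chr19:25160648-25160707, plus strand) encodes a nuclear protein linked to transcription. Its ratios were -1.02, 0.16, -0.13 and 0.033 in C-G0 and -0.43, -0.17, -0.050 and -0.34 in LPS-G0. They were 0.16, 0.40, 0.38 and 0.034 in C-G1 and 0.037, -0.038, -0.12 and -0.0016 in LPS-G1. They were -0.22, 0.38, 0.12 and 0.10 in C-G2 and 0.23, 0.026, 0.12 and -0.28 in LPS-G2. The rats of LPS-G1 lay closest together (SD 0.066), and C-G0 replicate 1 lay far below the other rats of its group. The means ran from -0.25 ± 0.17 (SD, n = 4) in LPS-G0 to 0.24 ± 0.18 in C-G1.

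Ier3 (probe at rn4 chr20:3076832-3076891, minus strand) encodes a regulator of cell survival that is known as a target of NF-kappa B. Its ratios were 1.11, 0.57, 0.41 and -0.19 in C-G0 and 0.56, 0.79, 0.23 and 0.38 in LPS-G0. They were 0.0049, -0.79, -0.46 and -0.10 in C-G1 and 0.11, -0.31, -0.085 and -0.35 in LPS-G1. They were 0.57, -0.39, -0.057 and -0.40 in C-G2 and 0.27, -0.096, 0.39 and -0.030 in LPS-G2. As for Fosb, 7 of 8 rats on the plain diet were above 0 and the exception was C-G0 replicate 4. The means ran from -0.34 ± 0.36 (SD, n = 4) in C-G1 to 0.49 ± 0.24 in LPS-G0.

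Nr4a1 (probe at rn4 chr7:140020442-140020501, plus strand), the receptor also called Nur77, is induced in lymphocytes by antigen receptor signals and in macrophages by LPS. Its ratios were -1.85, 0.082, -0.45 and -0.88 in C-G0 and -0.44, -0.39, -0.32 and -0.058 in LPS-G0. They were 0.18, 0.44, 0.45 and -0.38 in C-G1 and -0.18, -0.37, -0.019 and -0.069 in LPS-G1. They were 0.084, 0.28, 0.28 and 0.23 in C-G2 and 0.025, -0.034, -0.55 and -0.033 in LPS-G2. The rats of C-G2 were all above 0 and close together (0.22 ± 0.094, SD, n = 4), whereas those of C-G0 had the widest spread of any of the 6 bright members in any group (-0.77 ± 0.82). C-G0 replicate 1 at -1.85 was the lowest value of any bright member.

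**Figure D2:**
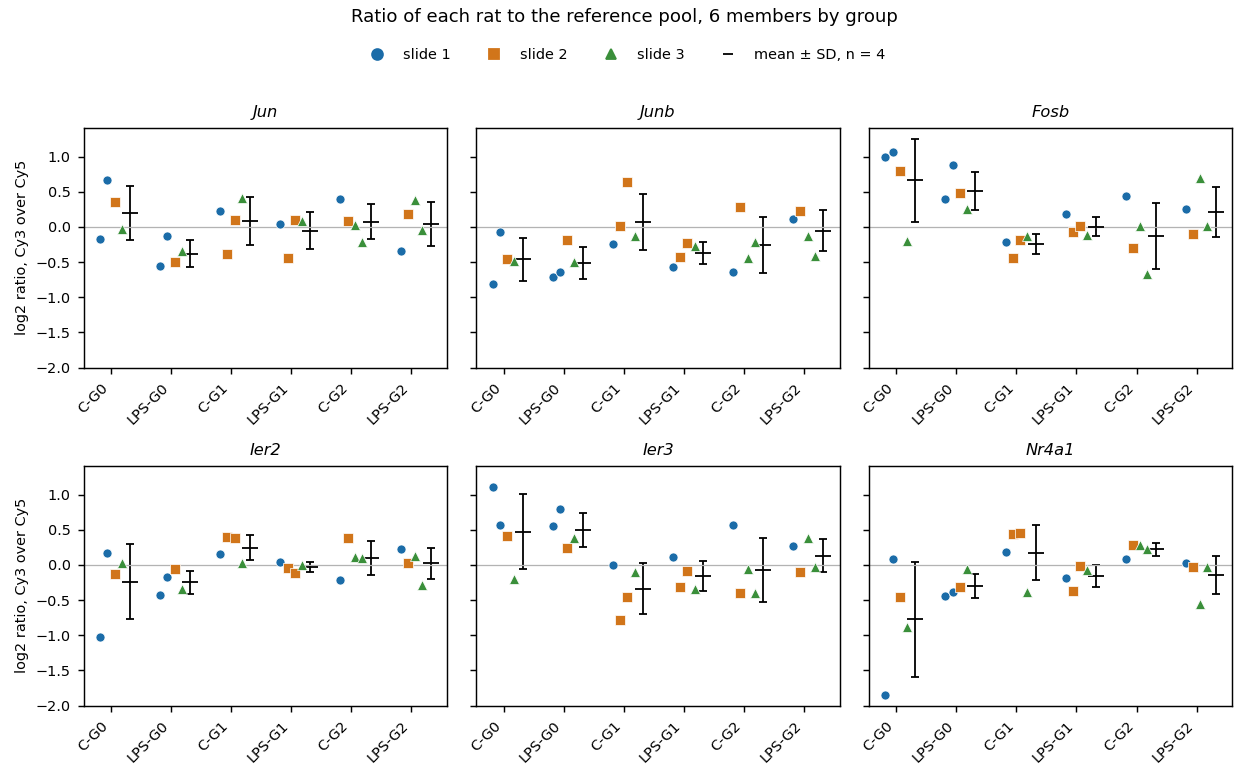
Log2 ratio of Cy3 over Cy5 for each rat, by group, for the 6 members bright in every rat; point shape and colour give the slide, and the dash with its bar is the mean with SD (n = 4). Fosb and Ier3 are above 0 in 7 of 8 rats on the plain diet, and C-G0 replicate 1 is the lowest point of Nr4a1 (-1.85) and Ier2 (-1.02).

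The groups were compared to ask whether LPS, or either beta-glucan, changed early gene levels in blood. No member was called in any comparison. With limma over 10676 probes and an adjusted p under 0.05 as the call, the F test over the 6 groups called 0 of 6 members (0.00937% of all probes tested). The lowest adjusted p-values of that test were 0.12 for Fosb, 0.127 for Ier3 and 0.134 for Nr4a1. At an unadjusted p under 0.05 the F test picked 23.4% of all probes. In none of the 7 comparisons of 2 groups did a member reach a difference of 2-fold, and the methods' one-way test without moderation also called 0 members in each comparison.

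No member passed the test for LPS on any diet. In LPS-G0 against C-G0, limma called 0 of 6 members (0% of all probes tested), and at an unadjusted p under 0.05 it picked 1 member against 11.3% of all probes. This was Jun, lower by 1.5-fold in LPS-G0 (log2 difference -0.58 ± 0.21 SE, 95% interval -1.01 to -0.15, limma adjusted p = 0.415, exact permutation p = 0.057). Within slides 1, 2 and 3, which hold 1 or 2 rats of a group each, the Jun difference was -0.58, -0.85 and -0.31. With normexp background correction and loess it was -0.27. With array weights it was -0.76 and was called (limma adjusted p = 0.025), in a fit that called 988 probes in place of 0. The other bright members differed by between -0.16 for Fosb and 0.47 for Nr4a1. NK and cytotoxic markers moved in the same comparison: 5 of 5 tested of the 6 listed were higher at an unadjusted p under 0.05 and 0 were called, with a mean log2 ratio over the list from -1.68 to -0.018 in the C-G0 rats and from -0.096 to 0.59 in the LPS-G0 rats. The 7 neutrophil markers tested had a median difference of -0.53, with 1 higher and 0 lower at an unadjusted p under 0.05. Of the 8 T cell markers tested, 2 were lower at that threshold. The part of these markers in the Jun value was not tested.

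On the G1 diet, LPS-G1 against C-G1 gave 0 calls (0.00937% of all probes tested), and 0 members against 2.81% of all probes at an unadjusted p under 0.05. The closest was Junb, whose difference was -0.45 ± 0.22 (SE, limma adjusted p = 0.950). Fosb was higher in all 4 LPS-G1 rats than in any C-G1 rat (difference 0.24, exact permutation p = 0.0286, the smallest that 4 against 4 allows), as were 1.33% of all probes, yet limma did not pick it. On the G2 diet, LPS-G2 against C-G2 also gave 0 calls (0% of all probes tested) and 0 members at an unadjusted p under 0.05, against 1.09% of all probes. Nr4a1 was lower in all 4 LPS-G2 rats than in any C-G2 rat (difference -0.37 ± 0.27 SE, limma adjusted p = 1.000, exact permutation p = 0.0286), as were 0.506% of all probes. Averaged over the 3 diets, LPS against C called 0 members (0.0187% of all probes tested) and picked Jun at an unadjusted p under 0.05, against 9.58% of all probes, with a difference of -0.25 ± 0.12 (SE, limma adjusted p = 0.520) that ranged from -0.42 with Cy3 alone to -0.12 with normexp and loess.

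The diets without LPS showed the widest differences. In C-G1 against C-G0, limma called 0 of 6 members (0.0281% of all probes tested), and 5 of 6 members passed an unadjusted p under 0.05, against 28.0% of all probes. The 5 went in both directions. Nr4a1 was 1.93-fold higher in C-G1 (log2 difference 0.94 ± 0.27 SE, limma adjusted p = 0.105), Junb was 1.44-fold higher (0.53 ± 0.22, limma adjusted p = 0.142) and Ier2 was 1.40-fold higher (0.48 ± 0.20, limma adjusted p = 0.143). Fosb was 1.87-fold lower (log2 difference -0.91 ± 0.25 SE, limma adjusted p = 0.104) and Ier3 was 1.76-fold lower (-0.81 ± 0.25, limma adjusted p = 0.106). The exact permutation p-values ran from 0.057 for Nr4a1 to 0.114 for Ier2, and the 2 groups overlapped for each of the 5.

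The Nr4a1 and Ier2 values leaned on a single control rat, whereas the Fosb and Ier3 differences were larger without another control rat. Without C-G0 replicate 1 the differences were 0.59 for Nr4a1 and 0.22 for Ier2. With array weights they were 0.44 for Nr4a1, 0.18 for Ier2, 0.28 for Junb and -0.50 for Ier3. Without C-G0 replicate 4, Fosb fell by 1.19 and Ier3 by 1.03 on the log2 scale in C-G1 and both were called (limma adjusted p = 0.0047 and 0.014), in a fit that called 966 probes in place of 3. Within slides 1, 2 and 3 the Fosb difference was -1.25, -1.11 and 0.078, the Ier3 difference -0.84, -1.04 and 0.092, and the Nr4a1 difference 1.07, 0.89 and 0.50. Erythroid markers also differed between C-G1 and C-G0. Of the 7 tested of 8 listed, 4 were lower at an unadjusted p under 0.05 and 0 were called, and their mean log2 ratio was -1.44 to -0.26 in the C-G1 rats and -0.17 to 0.30 in the C-G0 rats. Of the 5 NK and cytotoxic markers tested, 2 were higher in C-G1 at an unadjusted p under 0.05 and 0 were called, with a median difference of 0.62. The part of these markers in the values of the members was not tested.

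In C-G2 against C-G0, limma called 0 members (0.0281% of all probes tested), and 3 of 6 passed an unadjusted p under 0.05, against 13.3% of all probes. Nr4a1 was 1.99-fold higher in C-G2 (log2 difference 0.99 ± 0.27 SE, 95% interval 0.44 to 1.55, limma adjusted p = 0.173). All 4 rats of C-G2 were above all 4 of C-G0, as for 1.34% of all probes, and the exact permutation p was 0.0286. Without C-G0 replicate 1 the Nr4a1 difference was 0.64 and that of Ier3 was -0.33. Fosb was lower (-0.79 ± 0.25 SE, limma adjusted p = 0.219) and so was Ier3 (-0.55 ± 0.25, limma adjusted p = 0.342). Without C-G0 replicate 4, Fosb fell by 1.08 and was called (limma adjusted p = 0.012), in a fit that called 354 probes in place of 3. Both comparisons of diets share the C-G0 rats. Of the 5 NK and cytotoxic markers tested, 2 were higher in C-G2 at an unadjusted p under 0.05 and 0 were called, with a median difference of 0.56. Of the 8 T cell markers tested, 2 were lower at that threshold. The part of these markers in the values of the members was not tested.

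Among rats given LPS, LPS-G1 against LPS-G0 gave 0 calls (0.0281% of all probes tested), and 1 member passed an unadjusted p under 0.05 against 23.7% of all probes. This was Ier3, 1.57-fold lower in LPS-G1 (log2 difference -0.65 ± 0.25 SE, 95% interval -1.16 to -0.14, limma adjusted p = 0.131), with all 4 LPS-G1 rats below all 4 LPS-G0 rats. The Fosb groups did not overlap either (-0.50 ± 0.25 SE, limma adjusted p = 0.222), and 14.1% of all probes were separated in that direction. In LPS-G2 against LPS-G0 the calls were 0 (0% of all probes tested), and Junb was the 1 member at an unadjusted p under 0.05, against 5.30% of all probes (0.46 ± 0.22 SE, limma adjusted p = 0.764). Of the 7 neutrophil markers tested, 3 were higher in the same comparison at an unadjusted p under 0.05 and 0 were called, with a median difference of 0.59 and a mean log2 ratio of -0.44 to 0.0032 in the LPS-G0 rats and -0.26 to 0.55 in the LPS-G2 rats. Their part in the Junb value was not tested. Whether LPS acted differently on a supplemented diet was tested by interaction terms, which called 0 members on G1 and 0 on G2 (0% of all probes tested in each). Nr4a1 passed an unadjusted p under 0.05 in both, with -0.80 ± 0.38 (SE) on G1 and -0.84 ± 0.38 on G2 (limma adjusted p = 0.999 and 0.833), against 3.01% and 5.57% of all probes. Without C-G0 replicate 1 these were -0.45 and -0.48, and with array weights they were -0.26 and -0.39. In the G2 interaction 4 of the 5 NK and cytotoxic markers tested were lower at an unadjusted p under 0.05 and 0 were called, with a median of -0.99, and their part in the Nr4a1 value was not tested.

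**Figure D3:**
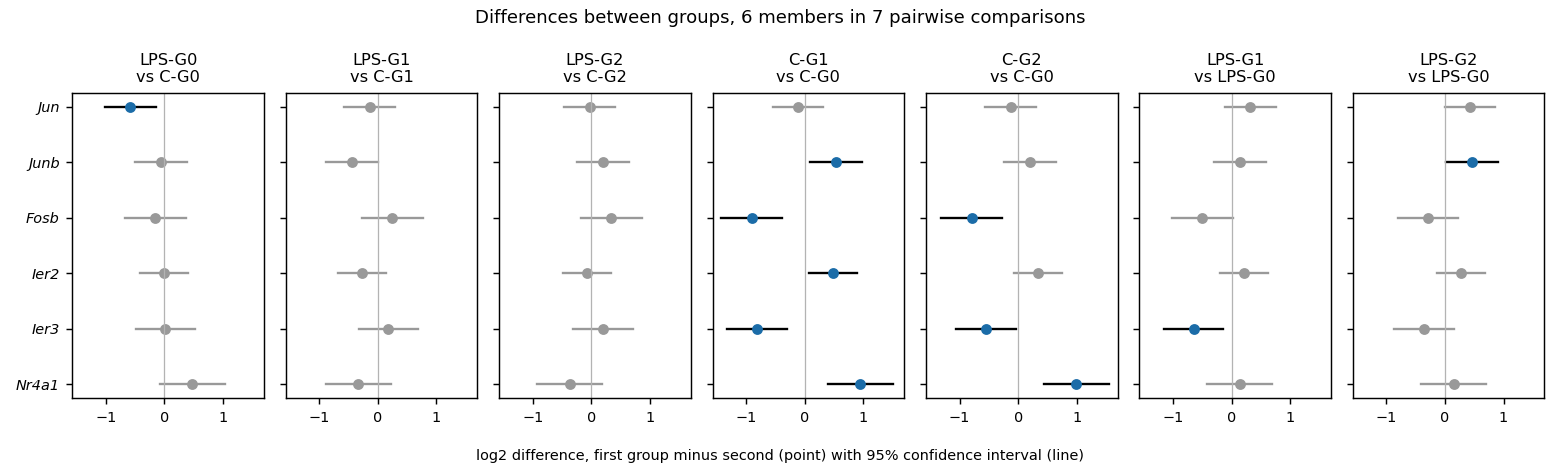
Log2 difference (first group minus second, points) with its 95% confidence interval (lines) for the 6 bright members in 7 comparisons of 2 groups, 4 rats a group; blue points have intervals that leave out 0 before any adjustment. The 5 blue points of C-G1 against C-G0 lie on both sides of 0, and no member was called after adjustment.

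Genes of the same pathway were counted from a list drawn up for this purpose. Of 40 other early response genes, such as further Fos, Egr, Nr4a, Dusp and Klf family members, 19 passed the filter, and 0 were called by limma in any of the 10 comparisons. Of 29 regulators, such as serum response factor, its Ets partners, CREB and the MAP kinases, 22 passed and 0 were called. In C-G1 against C-G0, 6 of the 19 early genes were higher and 2 lower at an unadjusted p under 0.05, against 12.2% and 15.8% of all probes. Their median log2 difference was 0.38, with 0.18 for the 6 members and 0.021 for all probes. In LPS-G0 against C-G0, 0 of the 19 were higher and 1 was lower at an unadjusted p under 0.05, against 11.3% of all probes in both directions together, with a median of -0.13 against 0.022 for all probes.

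The members varied between rats of 1 group by about as much as other genes did. The pooled within-group SD of the log2 ratio was 0.399 for Nr4a1, 0.368 for Fosb, 0.361 for Ier3, 0.308 for Junb, 0.296 for Jun and 0.276 for Ier2, and the median over all probes was 0.317. Nr4a1 exceeded 70.9% of all probes and Ier2 exceeded 36.6%. Repeat spots of a probe on 1 array differed far less, with a median SD between 0.052 for Ier2 and 0.142 for Ier3, while Junb had 1 spot. The variation was in Cy3 more than in Cy5 for each of the 6, as for Fosb with 0.465 against 0.151. The same held for 96.7% of the 7074 probes bright in both channels, the measure by which Cy3 was taken as the rats' channel. In C-G0 the SD was 0.816 for Nr4a1, 0.590 for Fosb, 0.536 for Ier3 and 0.534 for Ier2, and the median over all probes in that group was 0.377.

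Whether members rose and fell together across rats was tested on the deviations from group means, over 15 pairs and 24 rats, by permuting rats within groups. After adjustment 2 pairs passed, both positive. Fosb and Ier3 had a Pearson r of 0.84 and a Spearman rho of 0.83 (permutation p adjusted over the 15 pairs 4.5e-04 and 6e-04), and r was 0.78 without the 2 rats farthest from the median of Fosb. Within slides 1, 2 and 3 their r was 0.60, 0.65 and 0.95. Of all probes, 0.927% correlated with Fosb at least as highly as Ier3 did, and 1.11% did so with Ier3.

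Junb and Ier2 had a Pearson r of 0.68 and a Spearman rho of 0.69 (permutation p adjusted over the 15 pairs 0.0064 and 0.012), and r was 0.69 without the 2 rats farthest from the median of Junb. Within slides 1, 2 and 3 it was 0.80, 0.47 and 0.62, and with slide as a block the pair did not pass (adjusted permutation p = 0.071). Both genes lie on chromosome 19, with starts 318 kb apart in GRCr8. Of all probes, 0.731% correlated with Junb at least as highly as Ier2 did, and 6.26% did so with Ier2. Ier2 and Nr4a1 had an r of 0.70 that missed the threshold (adjusted permutation p = 0.081) and was 0.27 without the 2 rats farthest from the median of Ier2, so it rested on those rats. The other pairs had r from -0.57 for Ier2 and Ier3 to 0.53 for Junb and Nr4a1. By Spearman's rho Junb and Nr4a1 passed as a further pair (0.58, adjusted permutation p = 0.030).

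The correlations ran beside a wide pattern over the arrays. Pearson's r with the first principal component of all probes was 0.75 for Ier2, 0.58 for Nr4a1 and 0.57 for Junb, and -0.22 for Jun, -0.46 for Fosb and -0.81 for Ier3. Correlation with a member also varied with the GC content of probes. Over all probes, the correlation with Ier3 rose with GC (r = 0.45 across probes), as it did with Fosb (0.39) and Jun (0.32), while that with Junb fell (r = -0.53), as did those with Ier2 (-0.35) and Nr4a1 (-0.32). Probes are not independent replicates, and the part of these patterns in the pairs was not tested.

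**Figure D4:**
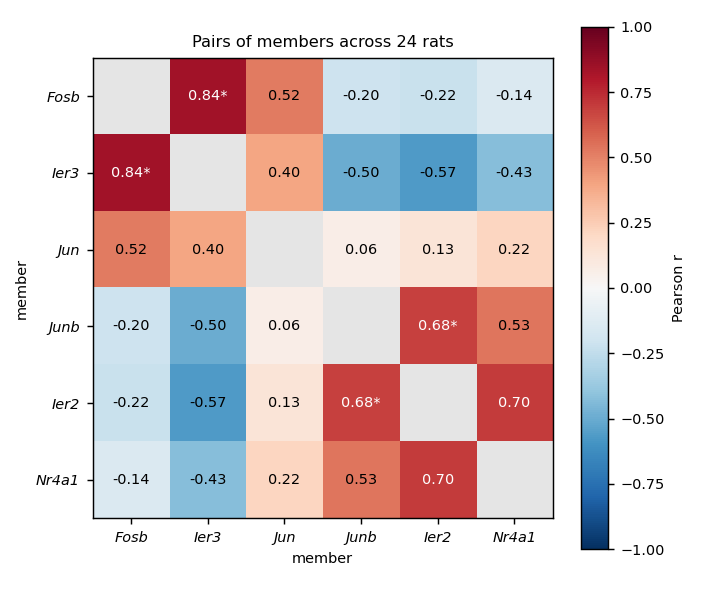
Pearson's r (colour and number) between the 6 bright members over 24 rats, on deviations from group means; a star marks a permutation p under 0.05 after adjustment over 15 pairs. Stars stand at Fosb with Ier3 (0.84) and Junb with Ier2 (0.68), and Ier3 is negative with Junb, Ier2 and Nr4a1.

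**Figure D5:**
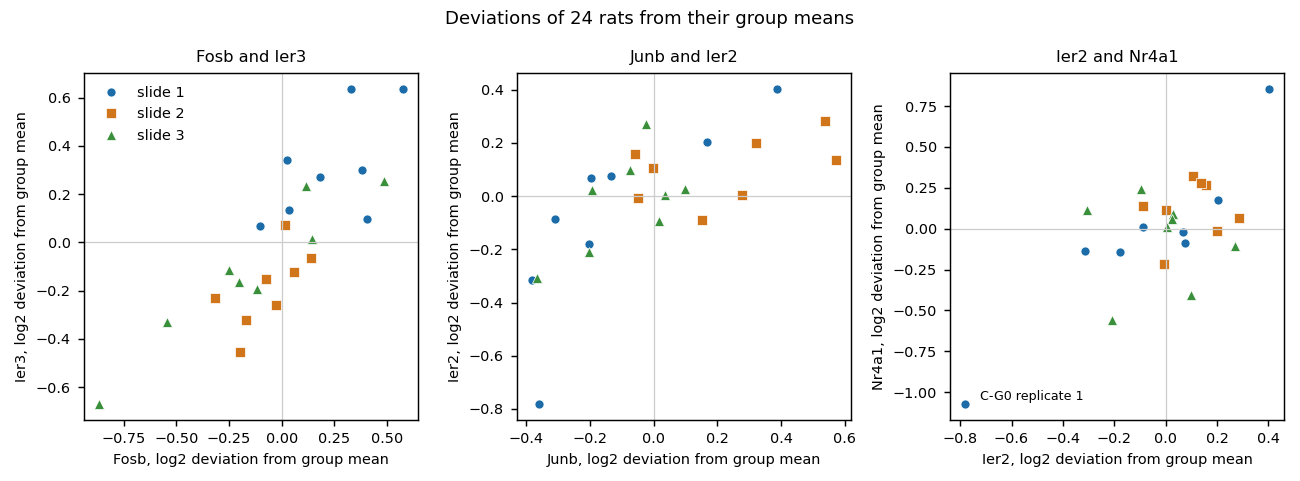
Deviations from the group mean (log2) of Fosb and Ier3, Junb and Ier2, and Ier2 and Nr4a1, 1 point per rat, with shape and colour giving the slide. The Ier2 and Nr4a1 plot stretches to C-G0 replicate 1 at the lower left, without which its r was 0.32.

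Promoter sequence is shown for Junb and Ier2, which correlated, and for Nr4a1, which correlated with both before adjustment. The windows are the 250 bases before the annotated start, 5′ to 3′, from RefSeq on GRCr8 and all on the plus strand: chr19:40080876-40081125 for Junb, chr19:40399123-40399372 for Ier2 and chr7:134259888-134260137 for Nr4a1. Capitals mark the CREB motif TGACGTCA, the related TGCGTCA, the AP-1 motif TGAGTCA, the Egr motif GCGNGGGCG and the CArG box of serum response factor, searched on both strands. The Egr motif overlaps a GC box (GGGCGG, in 30.5% of all promoters), which is not marked.
Junb: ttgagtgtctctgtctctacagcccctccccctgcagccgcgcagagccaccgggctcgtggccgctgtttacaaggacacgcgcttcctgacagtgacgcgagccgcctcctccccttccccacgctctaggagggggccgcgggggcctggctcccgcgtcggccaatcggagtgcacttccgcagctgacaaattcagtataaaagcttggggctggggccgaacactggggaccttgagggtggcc
Ier2: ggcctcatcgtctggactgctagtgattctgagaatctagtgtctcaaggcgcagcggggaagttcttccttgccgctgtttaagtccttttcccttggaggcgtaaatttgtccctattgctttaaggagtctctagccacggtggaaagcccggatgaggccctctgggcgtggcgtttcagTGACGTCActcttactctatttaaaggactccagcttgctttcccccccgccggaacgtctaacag
Nr4a1: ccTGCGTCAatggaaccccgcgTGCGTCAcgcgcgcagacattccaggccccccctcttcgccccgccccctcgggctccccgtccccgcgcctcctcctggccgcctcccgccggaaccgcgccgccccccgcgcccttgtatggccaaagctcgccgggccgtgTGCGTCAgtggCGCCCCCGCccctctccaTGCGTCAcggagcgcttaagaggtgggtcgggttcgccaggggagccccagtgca

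The Ier2 window held TGACGTCA 66 to 59 bases before the start, a motif in 1.59% of the 33469 promoters of the table. The Nr4a1 window held TGCGTCA at 4 places, with 1.66% of all promoters holding it, and 1 Egr motif 73 to 65 bases before the start, with 4.29% of all promoters holding it. The Junb window held none of the marked motifs. The table held 6 of the 10 members, and among these 6 the CArG box stood in Egr1 and Egr2 (1.5% of all promoters) and TGAGTCA in none (4.05%). The GC content was 66.0% for Junb, 53.2% for Ier2 and 74.8% for Nr4a1, with a median of 51.2% over all windows. A match is a description of the letters, and no binding was measured.

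The genes whose deviations were most like the mean of the 6 bright members over 24 rats were Agpat4 (r = 0.81), Mras (0.80), Klra17 (0.80), Mal (0.79) and Ahnak (0.79). Likeness to each single member, added after the values were seen and given over genes with a symbol, named different genes. For Nr4a1 the nearest were Cebpb (r = 0.89), a leucine zipper factor of myeloid cells, and Klf4 (0.86), which is itself an early response gene. For Junb they were Cltc (0.85), the clathrin heavy chain, and Nptn (0.81). For Ier2 they were Rnaset2 (0.90) and Spn (0.88), the leukocyte sialophorin. For Jun they were Clec12a (0.79), a lectin receptor of myeloid cells, and Ptprj (0.78). For Fosb they were Zbtb8b (0.98) and Ly6g5c (0.97), and for Ier3 Gas1 (0.96) and Fam90a1 (0.95). The named genes stand at the top of a ranking, and how particular they are to a member was not tested. A lower limit shows how common weaker likeness was. An r of at least 0.5 was reached by 22.5% of all probes with Ier2, 21.9% with Ier3 and 10.9% with Nr4a1. The share was 8.70% with Fosb, 8.36% with Junb and 3.49% with Jun.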

How the data were processed

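Blood RNA of 24 rats was hybridised to two-colour Agilent arrays against a common reference. Per the labels, the authors deposited Feature Extraction output with background-subtracted processed intensity signals and Lowess-normalised log10 ratios of Cy5 over Cy3 (version 10.7.3.1 in the labels, 10.10.1.1 in the file headers). The deposited series table held the same 1511424 log10 values. Log2 ratios of Cy3 over Cy5 were computed as the negative LogRatio, outlier spots and controls were left out, and spots of a probe were averaged. Egr1 was represented by its brighter probe. Of 30367 probes, 10676 passed a filter on Cy3 (each of the 4 arrays of 1 group or more well above background) and were tested with limma 3.58.1 in R 4.3.3 over 24 arrays, with group as the only term and Benjamini-Hochberg adjustment over all probes tested. Pairs of groups were compared by exact permutation tests (70 arrangements, two-sided) and pairs of members by 100000 permutations within groups. The number of arrays limits the precision. Samples with the same replicate number did not deviate together in every pair (r from -0.31). Their mean r was 0.11, against -0.038 for samples with other numbers. Numbers were not treated as pairs, and a replicate block was run as an alternative. Alternatives covered background correction, channel, filters, slide and replicate blocks, weights and left-out arrays. Genes were named where they were members, were called, or were nearest in likeness. The members and lists were chosen with earlier results of these data known.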

Additional observations from a re-analysis of the deposited data

Results flagged for a closer look

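Over 36 tests of 4 rats each (6 bright members in 6 groups), 2 rats lay apart from the rest of their group by Dixon's criterion at the 95% level, which chance alone meets in about 5% of groups. Jun in LPS-G1 replicate 2 had a log2 ratio of -0.447, with the other 3 rats between 0.045 and 0.101. Nr4a1 in LPS-G2 replicate 3 had a log2 ratio of -0.552, with the other 3 rats between -0.034 and 0.025.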

How the results depend on the processing

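The 14 differences between groups at an unadjusted p under 0.05 kept their direction in each of up to 37 alternative settings. The count of members called was 0 in all but 3 settings. Array weights gave 3 by the F test, 1 in LPS-G0 against C-G0 (Jun) and 1 in LPS-G1 against LPS-G0 (Ier3). With those weights the F test called 2157 probes in place of 1, and LPS-G0 against C-G0 called 988 in place of 0. Without each rat in turn the counts ran from 0 to 1 by the F test, 0 to 2 in C-G1 against C-G0 and 0 to 1 in C-G2 against C-G0, above 0 only without C-G0 replicate 4. Without that rat the F test called 144 probes in place of 1, and C-G2 against C-G0 called 354 in place of 3. Replicate 1 of every group lay on slide 1 and replicate 4 of every group on slide 3, so the numbers partly follow the slides. A replicate block gave 2 members by the F test and 3 in C-G1 against C-G0 (Fosb, Ier3 and Nr4a1). It also gave 1 in LPS-G1 against LPS-G0 (Ier3) and 4 correlated pairs, with no other call changed. Correlated pairs numbered 5 with Cy3 alone and 1 with slide as a block (Fosb and Ier3), and 2 to 4 without each rat in turn, with 4 without C-G0 replicate 1 or LPS-G2 replicate 4. Fosb and Ier3 passed in 33 of 33 alternatives and Junb and Ier2 in 32. The Jun difference of LPS-G0 from C-G0 was -0.27 with normexp and loess in place of -0.58. The cause of these changes was not tested. Counts over all probes moved more: in C-G1 against C-G0 from 3 to 966 without C-G0 replicate 4 and 636 with the replicate block, and in LPS-G1 against LPS-G0 from 3 to 276 with normexp and loess, 778 without C-G1 replicate 2, 927 with only 16 arrays in the fit and 3018 with array weights. With the replicate block the F test called 1320 probes in place of 1. Signal near background limits Fos, Atf3, Egr1 and Egr2.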
